A study of Homo sapiens with 2 samples.

Results

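The genes described here encode the proteins that copy DNA in S phase, from the licensing of replication origins to the supply of deoxynucleotides. They were chosen by symbol, from a list of 47 names that sets no threshold on measured values, and all 47 were found once each among the 60616 genes of the deposited tables. HSC-3 is a long-established line from a human squamous cell carcinoma of the tongue, and its RNA was sequenced from cells given 1 µM FIN56 for 48 h and from cells given the vehicle, 0.1% DMSO, for which no time is stated. FIN56 induces ferroptosis, in which cells die through the peroxidation of their membrane lipids. Each condition has 1 library, with a total of 70184517 expected counts for DMSO and 73062209 for FIN56. A difference between the conditions therefore could not be checked in replicates, and p-values are not given.

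Before S phase, the origin recognition complex, CDC6 and CDT1 load the MCM2-7 ring onto DNA as an inactive helicase. CDC45 and the GINS complex then turn the ring into an active helicase, and primase, the replicative polymerases, the sliding clamp and its loader build the new strands. Many of these genes are transcribed under the control of E2F factors as cells leave G1, so their RNA is commonly used as a sign of proliferation.

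Levels are given as FPKM, that is, fragments scaled for effective transcript length and library depth, and the ratio of a gene is its FPKM in the FIN56 library over that in the DMSO library. All 47 genes were above 0 in both libraries, and 46 reached an FPKM of 1 in both, the exception being CCNE1. The squamous markers fitted the label of the line, with all 11 at 1 FPKM or more and a summed FPKM of 6187 in DMSO and 5568 in FIN56. KRT5 was the most abundant of them, at 2078 and 1647. Of the 4 leukocyte markers, PTPRC and CD3E were at 0 in both libraries. Their summed FPKM of 57.3 in DMSO and 24.6 in FIN56 came almost wholly from CD68, which is also made outside leukocytes. The 7 fibroblast markers summed to 5.26 and 3.03, with COL1A1 the most abundant at 4.25 and 2.19 and with COL1A2 and COL3A1 at 0 in both. The 3 endothelial markers summed to 0.08 in each library, with VWF the most abundant at 0.08 and 0.06 and PECAM1 at 0 in both.

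By the median FPKM ratio, the DNA replication and S phase genes as a list did not stand apart from all genes. The median log2 ratio of the 47 genes was 0.013, beside 0 over the 24454 genes above 0 in both libraries and 0.028 over the 12638 genes that reached 1 FPKM in both. The ratio was above 1 for 25 of the 47 and below 1 for 22. Over the 24454 genes it was above 1 for 11770 and below 1 for 11299, and over the 12638 genes for 6764 and 5832. The counts by role given below are to be read beside these. Summed FPKM of the 47 genes was 2407 in DMSO and 2385 in FIN56, and they took 0.491% and 0.485% of all expected counts. Bulk RNA cannot tell a smaller share of cells in S phase from less of these RNAs per cell.

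Few members passed the study's 1.5-fold criterion for higher genes, or the matching cut of 1/1.5 for lower genes, which was set here. At 1.5 or more stood 1 of the 47 genes, CCNE2, or 2.13%, where 14.7% of the 24454 genes and 3.87% of the 12638 genes did. At 1/1.5 or less stood 3, POLD2, TYMS and RFC2, or 6.38%, where 17.3% and 6.77% of the same genes did. By the deposited TPM only POLD2 kept this call, as TYMS and RFC2 had TPM ratios of 0.675 and 0.676, and ORC6 joined CCNE2 at 1.5 or more. By FPKM the members' share at the lower end was near that of genes at 1 FPKM or more, among which 46 of the members fall. By expected counts scaled with the library totals, that share was 14.9%, beside 7.11% of those genes. The members just outside these 2 cuts were ORC6, with a ratio of 1.47, and RRM2, with 0.674.

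A fold of 1.2 was also used, since the members are deeply counted. It was reached by 7 members (14.9%), where 28.2% of genes above 0 and 21.2% of genes at 1 FPKM or more reached it. In the other direction 10 members (21.3%) stood at 1/1.2 or less, where 29.7% and 21.3% of genes did. The error of counting was described by an exact 95% interval (Clopper-Pearson) for the ratio of expected counts, scaled by library totals, and no other error enters it. That interval lay above 1 for 20 members (42.6%) and below 1 for 16 (34.04%). Over all genes above 0 these shares were 23.4% and 23.1%, and over genes at 1 FPKM or more they were 38% and 35.9%. The members' shares were near those of genes at 1 FPKM or more, so passing counting error at this depth did not set them apart.

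The members spanned a wide range of levels in DMSO, from 0.85 FPKM for CCNE1 to 248 for PCNA. PCNA and MCM3 ranked first and second in both libraries. RRM2 went from rank 3 to rank 6, POLD2 from 7 to 11 and TYMS from 8 to 14, so among the 10 most abundant members the larger moves down the order were in nucleotide supply and in a polymerase subunit.

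**Figure D1:**
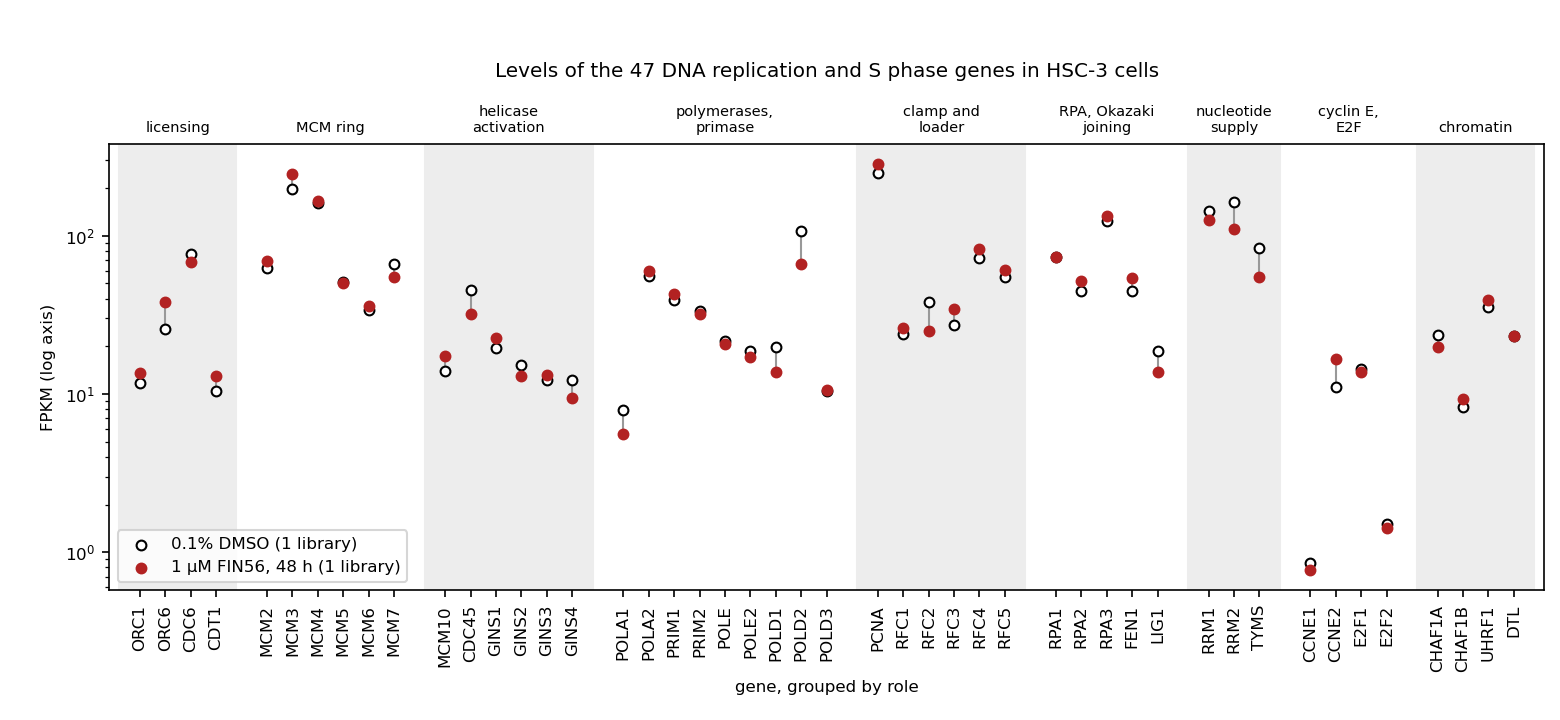
FPKM (log axis) of each of the 47 DNA replication and S phase genes, grouped by role along the horizontal axis, in the DMSO library (open circles) and the FIN56 library (red circles), with 1 library for each. Levels run from CCNE1 (0.85 in DMSO) to PCNA (248), and most pairs lie close together, with wider gaps for POLD2, TYMS, RFC2, CCNE2, RRM2, ORC6, POLD1, POLA1 and CDC45.

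Among the genes of origin recognition and licensing, 3 of 4 were higher in FIN56. ORC6, a subunit of the origin recognition complex, measured 25.9 FPKM in DMSO and 38.0 in FIN56, with 2689 and 3984 expected counts. Its count ratio of 1.42 had an interval of 1.35 to 1.495. It was the second highest ratio of all members, and its counts were not whole, which means that some of its reads were shared with other genes. ORC1, the subunit with ATPase activity, was at 11.8 and 13.6 FPKM, and CDT1, a loader of the MCM ring, at 10.51 and 13.0. CDC6, the other loader, was lower in FIN56, at 76.2 and 68.3 FPKM, with a count interval of 0.898 to 0.949. The 2 loaders therefore lay on opposite sides of 1, with ratios of 1.24 for CDT1 and 0.896 for CDC6.

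The subunits of the MCM2-7 ring, which act together as 1 hexamer, spread around 1. MCM3 was the most abundant of them and the highest in ratio, with 198 FPKM in DMSO, 247 in FIN56 and a ratio of 1.25. MCM7 was the lowest, at 66.2 and 54.6 FPKM, with a ratio of 0.825 and a count interval of 0.804 to 0.850. The 2 intervals did not overlap, so these subunits of 1 complex differed from each other by more than counting error. MCM2 was at 62.5 and 69.7 FPKM, MCM4 at 161 and 165, MCM5 at 51.2 and 50.2, and MCM6 at 34.2 and 35.7. The count intervals of MCM5 and MCM6 held 1, and the sign of MCM5 changed with the unit and scaling used. Summed over the 6 subunits, FPKM was 573 in DMSO and 622 in FIN56. Exons of MCM7 share 392 bases with AP4M1 on the other strand and those of MCM2 share 1113 with a gene that has no symbol, and the expected counts of both were not whole.

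Helicase activation factors were split 3 against 3. CDC45, the partner of the ring in the active helicase, was at 45.2 FPKM in DMSO and 32.1 in FIN56, with 4858 and 3538 expected counts. Its ratio of 0.711 was the lowest of this group. MCM10, which acts at the start of unwinding, was at 13.9 and 17.5 FPKM, with a ratio of 1.25, the highest of the group. The 4 GINS subunits form 1 complex, and 2 of them were higher and 2 lower. GINS1 was at 19.4 and 22.5 FPKM and GINS3 at 12.3 and 13.3. GINS2 was at 15.3 and 12.9, and GINS4 at 12.2 and 9.47. The count intervals of GINS1 and GINS3 lay above 1 and those of GINS2 and GINS4 below 1. The expected counts of GINS3 and GINS4 were not whole.

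Polymerase and primase subunits held the lowest ratio of all members. POLD2, the second subunit of DNA polymerase delta (ENSG00000106628, GRCh38 chr7:44114631-44124358, minus strand), measured 107 FPKM in DMSO and 65.9 in FIN56. Its expected counts were whole, 10825 and 6521. The FPKM ratio was 0.613, and the count ratio of 0.579 had an interval of 0.561 to 0.597. POLD1, the catalytic subunit of the same enzyme, was at 19.9 and 13.7 FPKM, with a ratio of 0.687. POLD3, an accessory subunit, was at 10.47 FPKM in DMSO and 10.52 in FIN56, and its count interval of 0.940 to 1.06 held 1. Of these 3 subunits of polymerase delta, then, 2 were lower in FIN56 and POLD3 was level.

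A like split was seen in polymerase alpha. POLA1, its catalytic subunit, was at 7.94 FPKM in DMSO and 5.55 in FIN56, with 2578 and 1734 expected counts. POLA2, its second subunit, was at 55.6 and 60.1 FPKM. The ratios were 0.699 and 1.08, and the intervals of the counts lay on opposite sides of 1. POLA2 shares 2012 exon bases with an overlapping gene on the same strand, and its expected counts were not whole. The primase subunits PRIM1 and PRIM2 had ratios of 1.09 and 0.956, and PRIM1 shares 139 exon bases with the abundant NACA. POLE, the catalytic subunit of polymerase epsilon, had a ratio of 0.958, and its second subunit POLE2 one of 0.908, with a count ratio of 0.787 and an interval of 0.732 to 0.846. The direction of POLE and PRIM2 changed with the unit and scaling. Over the 9 genes of this group summed FPKM was 314 in DMSO and 268 in FIN56, and 6 of the 9 had a ratio below 1.

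By FPKM the sliding clamp and its loader were higher in FIN56 in 5 of 6 genes. By expected counts scaled with the library totals, 4 of the 6 were higher. PCNA, the clamp that holds polymerases on DNA, was at 248 FPKM in DMSO and 283 in FIN56, with a count interval of 1.12 to 1.16. RFC3 was the highest of the loader subunits in ratio, at 27.3 and 34.7 FPKM, a ratio of 1.27. The exception was RFC2 (ENSG00000049541, GRCh38 chr7:74231499-74254458, minus strand), at 38.0 and 25.1 FPKM. Its expected counts were whole, 3997 and 2728, and its count ratio of 0.656 had an interval of 0.624 to 0.689. RFC2 was thus the subunit apart in a 5-subunit complex, as RFC1, RFC4 and RFC5 had FPKM ratios of 1.104, 1.15 and 1.11. RFC1 is less clear than its FPKM shows, since its expected counts were 6584 and 6652, a count ratio of 0.971 with an interval of 0.938 to 1.004.

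Of the 5 genes for single-strand binding and the joining of Okazaki fragments, 4 had a ratio above 1. FEN1, the nuclease that trims the flaps of these fragments, was at 45.0 FPKM in DMSO and 54.4 in FIN56. LIG1, the ligase that then seals them, was at 18.8 and 13.8. These enzymes of consecutive steps lay on opposite sides of 1, with ratios of 1.21 and 0.735. For LIG1 the count ratio was lower, 0.646, with an interval of 0.611 to 0.683. The 3 subunits of RPA, which coats single-stranded DNA, had ratios of 1.009 for RPA1, 1.16 for RPA2 and 1.07 for RPA3. The count interval of RPA1, 0.943 to 0.991, lay below 1, so its direction depends on the unit.

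The 3 genes of deoxynucleotide supply were all lower in FIN56, under each unit, scaling and filter tried. RRM2, the small subunit of ribonucleotide reductase, was at 164 FPKM in DMSO and 110 in FIN56, with 20750 and 14014 expected counts. TYMS, thymidylate synthase (ENSG00000176890, GRCh38 chr18:657653-673578, plus strand), was at 83.2 and 54.9 FPKM, with 7733 and 5105 expected counts. RRM1, the large subunit of the reductase, differed less, at 143 and 127 FPKM. The ratios were 0.674, 0.660 and 0.884, and this group had the lowest median of the 9 roles, a log2 ratio of -0.57. Neither RRM2 nor TYMS had whole expected counts, and TYMS shares 967 exon bases with ENOSF1 on the other strand. ENOSF1 itself had 4658 expected counts in DMSO and 3664 in FIN56, and the part of shared reads in the value of TYMS was not tested.

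Of the cyclin E and E2F genes, 1 of 4 differed beyond counting error. CCNE2, cyclin E2, was at 11.02 FPKM in DMSO and 16.6 in FIN56, with 1355 and 2384 expected counts. Its FPKM ratio was 1.51 and its count ratio 1.69, with an interval of 1.58 to 1.81. Exons of CCNE2 share 1629 bases with INTS8 on the other strand, which had 4578 and 4263 expected counts. Use of strand in the counting is not given in the sources used here, so reads of the pair may not be told apart. CCNE1, cyclin E1, had 99 and 95 expected counts, and at this depth no difference was detectable, with an interval of 0.688 to 1.23. E2F1 was at 14.3 and 13.7 FPKM and E2F2 at 1.5 and 1.42, and the intervals of both held 1.

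Of the 4 genes of chromatin assembly and copying, 1 had a count interval above 1, 1 below, and 2 held 1. CHAF1A and CHAF1B, subunits of the histone chaperone behind the fork, were at 23.7 and 8.25 FPKM in DMSO and at 19.9 and 9.27 in FIN56. Their ratios were 0.841 and 1.12, though the count interval of CHAF1B, 0.953 to 1.08, held 1. UHRF1, which directs maintenance methylation to new DNA, had a ratio of 1.11. DTL, the adaptor that targets CDT1 for destruction on the clamp, was at 23.3 FPKM in DMSO and 23.2 in FIN56. DTL and CHAF1B thus showed no difference beyond counting error, whereas CHAF1A was lower and UHRF1 higher.

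**Figure D2:**
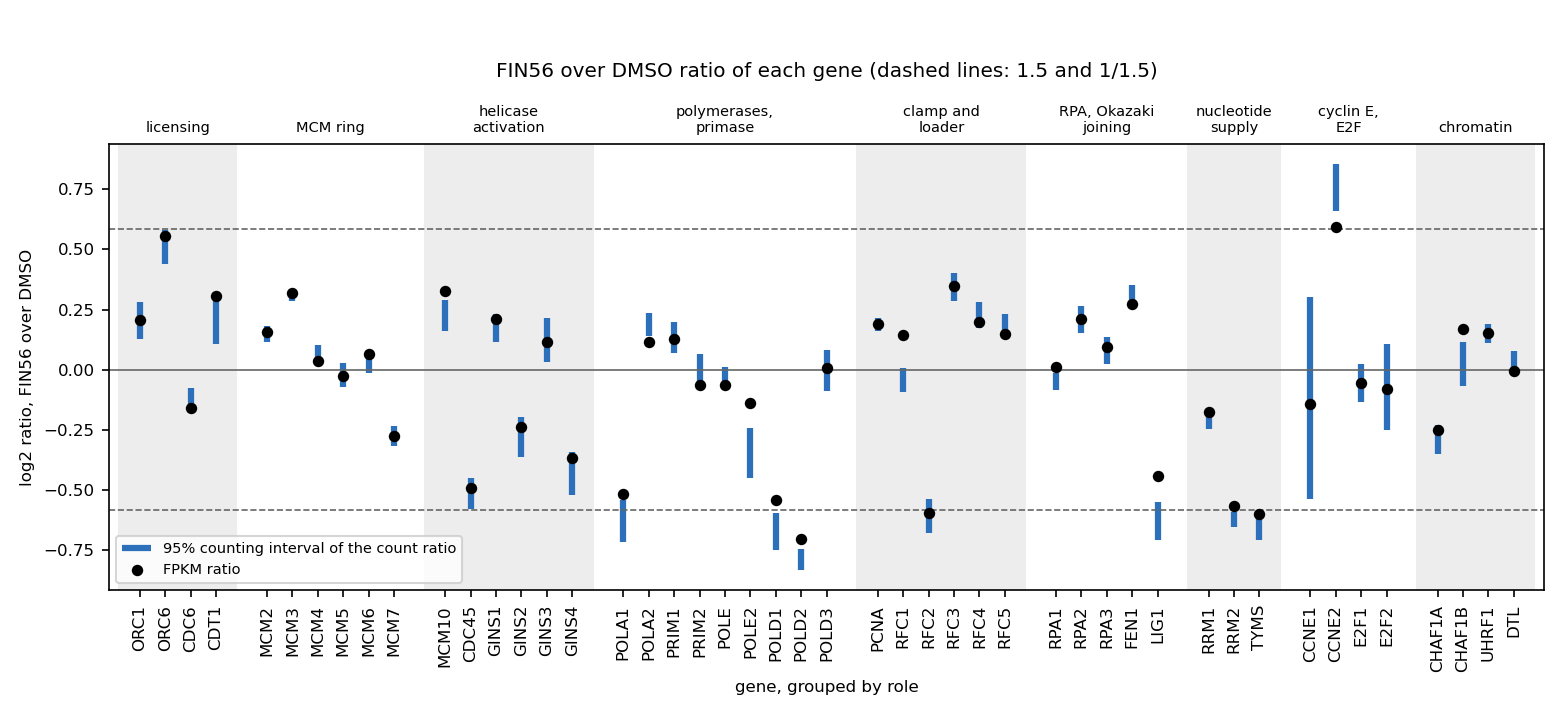
Log2 ratio of FIN56 over DMSO for the 47 genes by role, as the FPKM ratio (black points) and as the 95% counting interval of the ratio of expected counts (blue bars), from 1 library per condition. CCNE2 lies above the upper dashed line (1.5), POLD2, TYMS and RFC2 lie below the lower one (1/1.5), and subunits of the same complex fall on both sides of 0.

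FPKM and count ratios part where the effective length that RSEM estimates for a gene differs between the libraries. The length implied by the deposited values differed by over 1.1 times for 5 of the 47 members (10.6%), beside 15.0% of the 12428 genes at 1 FPKM or more in both libraries with 100 or more expected counts in all. For CCNE2 it was 1751 bases in DMSO and 1963 in FIN56, and for LIG1 2382 and 2092. It was also shorter in FIN56 for RFC1, POLE2 and CHAF1B. By expected counts scaled with the library totals, 7 members stood at 1/1.5 or less in place of 3, namely LIG1, POLA1, POLD1, POLD2, RFC2, RRM2 and TYMS. That was 14.9% of members, beside 17.0% of all genes above 0 and 7.11% of those at 1 FPKM or more.

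Reads shared with other genes touched 16 members, whose expected counts were not whole in at least 1 library. Among the 31 members with whole counts, the median log2 ratio was 0.0069, none reached 1.5, and 2, POLD2 and RFC2, stood at 1/1.5 or less. These were 0% and 6.45% of the 31, beside 3.87% and 6.77% of genes at 1 FPKM or more and 14.7% and 17.3% of genes above 0. The list median was close to 0 with and without the members whose counts were not whole.

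Ratios also followed base composition across genes with 50 or more expected counts in all. The median log2 ratio was 0.11 in the lowest of 10 bins of genes by transcript GC content and -0.10 in the highest. Centred for both GC content and length of the transcript, an alternative chosen after seeing the data, CCNE2 had a log2 ratio of 0.48 and no member stood at 1.5 or more. POLD2, TYMS and RFC2 then had -0.58, -0.57 and -0.52, short of 1/1.5. POLA1 and RRM2 stood at 1/1.5 or less with -0.59 and -0.62. The members' shares at 1.5 or more and at 1/1.5 or less were thus 0% and 4.26%. After the same centring they were 4.14% and 6.10% for genes at 1 FPKM or more, and 14.6% and 16.2% for genes above 0.

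**Figure D3:**
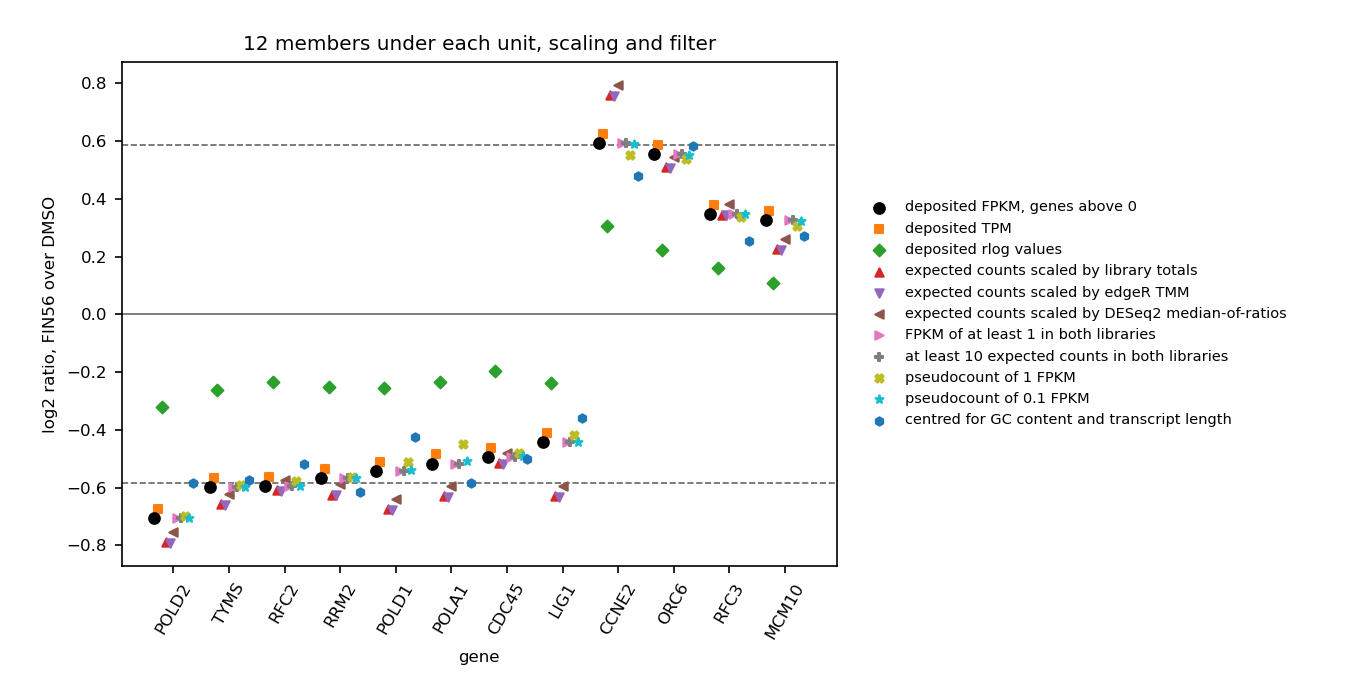
Log2 ratio of FIN56 over DMSO for the 8 members with the lowest and the 4 with the highest FPKM ratio, under each unit, scaling and filter (symbols), with 1 library per condition and dashed lines at 1.5 and 1/1.5. All 12 kept their sign under the 11 settings, while the rlog values lay nearest to 0 and the count scalings placed LIG1 and CCNE2 farther out than the FPKM ratio did.

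Promoter sequences were read because many of these genes are textbook E2F targets. A RefSeq table on GRCh38.p14 gave windows from 250 bases before to 50 after the start for 40 of the 47 genes, 50 windows in all, and CCNE2, GINS4, MCM4, MCM5, POLD3, RPA2 and RPA3 had no entry. The letters TTTCCCGC, TTTCGCGC, TTTGCCGC and TTTGGCGC, which resemble the E2F motif, were searched on both strands. They were found in 22 of the 50 windows (44%), against 3.31% of all 35116 windows and 5.04% of those of genes at 1 FPKM or more. CCAAT, the core of the NF-Y motif, was in 30 (60%), against 34.6% and 35.2%. Windows of the same gene can overlap. Counted by gene, the first motif was in 21 of 40 (52.5%), against 3.99% and 6.88%. CCAAT was then in 24 of 40 (60%), against 39.7% and 43.8%, a smaller contrast than by window. Promoters of the mitosis and G2/M list held the first motif in 4 and CCAAT in 27 of 38 windows. A match describes the letters only and is no evidence of binding.

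The first motif was found in members of either direction. It was in the windows of 3 of the 6 matched genes at 1.2 or more, 4 of the 9 at 1/1.2 or less and 14 of the 25 between. Counted by window, it was in 3 of 6 (50%), 4 of 15 (26.7%) and 15 of 29 (51.7%), since some genes have several windows. Stretches upstream of the start are printed for 5 members, chosen after their values were seen and free of annotated exons, with both kinds of motif in capitals on either strand. They lie at GRCh38.p14 chr16:88803729-88803788 on the plus strand for CDT1, chr20:5126642-5126701 on the minus strand for PCNA, chr2:135876484-135876543 on the minus strand for MCM6, chrX:24693776-24693835 on the plus strand for POLA1 and chr20:33686386-33686445 on the minus strand for E2F1. The count intervals of MCM6 and E2F1 held 1.
CDT1: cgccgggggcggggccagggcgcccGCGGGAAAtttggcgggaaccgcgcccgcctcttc
PCNA: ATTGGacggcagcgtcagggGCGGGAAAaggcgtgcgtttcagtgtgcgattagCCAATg
MCM6: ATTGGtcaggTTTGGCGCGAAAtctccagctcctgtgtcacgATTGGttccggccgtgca
POLA1: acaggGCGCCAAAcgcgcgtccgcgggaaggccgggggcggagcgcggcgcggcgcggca
E2F1: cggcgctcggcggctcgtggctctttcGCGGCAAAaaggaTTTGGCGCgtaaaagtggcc
In MCM6 matches on both strands overlap between a pair of CCAAT matches, and E2F1 holds a match on each strand close to its own start. CDT1, with a ratio of 1.24, and POLA1, with 0.699, each hold 1 match of the first motif in the stretch shown.

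Other genes of the pathway went both ways. Of 34 other replication factors none stood at 1.5 or more and 2 (5.88%) at 1/1.5 or less, with a median log2 ratio of -0.025. Over all genes above 0 those shares were 14.7% and 17.3%, and over those at 1 FPKM or more 3.87% and 6.77%. Count intervals lay above 1 for 12 of the 34 and below for 18, where 38% and 35.9% of genes at 1 FPKM or more did. The 2 at 1/1.5 or less were TOP2A, a topoisomerase that peaks in G2 and mitosis, at 122 FPKM in DMSO and 62.5 in FIN56, and CHTF18, of an alternative clamp loader, at 12.6 and 7.27. The highest ratios were those of MTBP (1.34) and ORC4 (1.21). Of 22 other nucleotide supply genes 5 stood at 1.2 or more and 6 at 1/1.2 or less, beside 21.2% and 21.3% of genes at 1 FPKM or more. Count intervals lay above 1 for 9 of the 22 and below for 13, beside 38% and 35.9% of the same genes. None stood at 1/1.5 or less and 1 (4.55%) at 1.5 or more, UMPS of pyrimidine synthesis with 1.504, though its count ratio was 1.38, with an interval of 1.32 to 1.45, and the median log2 ratio was -0.086. RRM2B, the stress form of the small reductase subunit, had a ratio of 1.36 beside the 0.674 of RRM2, at 6.54 FPKM in DMSO and 8.87 in FIN56, and a count ratio of 1.19. TK1, a thymidine kinase that rises in S phase, had 0.712, and DTYMK, the next kinase of that path, 0.734.

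Among 32 genes of G1/S control and the fork checkpoint, the median log2 ratio was 0.036, with 2 genes (6.25%) at 1.5 or more and 1 (3.13%) at 1/1.5 or less, beside 14.7% and 17.3% of all genes above 0 and 3.87% and 6.77% of those at 1 FPKM or more. Count intervals lay above 1 for 14 and below for 15, where 38% and 35.9% of genes at 1 FPKM or more did. HUS1, of the checkpoint clamp, was at 13.1 FPKM in DMSO and 23.3 in FIN56, and CCND1, cyclin D1, at 247 and 419. RBL2, a pocket protein that binds E2F4, was at 13.5 and 8.93. Cyclins differed in direction, with ratios of 1.70 for CCND1, 1.51 for CCNE2 and 0.730 for CCNA2. CCNE1 had a ratio of 0.906, and its count interval held 1.

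The lists that differed from the DNA replication and S phase genes were those of mitosis and of histones. Of 35 mitosis and G2/M genes, 34 had an FPKM ratio below 1, where 5832 of the 12638 genes at 1 FPKM or more did. By TPM 31 of the 35 did, and by counts scaled with the totals 32. By FPKM 12 (34.3%) stood at 1/1.5 or less, beside 17.3% of all genes above 0 and 6.77% at 1 FPKM or more, and none at 1.5 or more. Count intervals lay below 1 for 31 and above for 2, where 35.9% and 38% of genes at 1 FPKM or more did. Their median log2 ratio was -0.41, beside 0.013 for the replication genes. The lowest was KIF20A, a kinesin of cytokinesis, at 48.9 FPKM in DMSO and 19.8 in FIN56, and CCNB1, cyclin B1, was at 196 and 104. The highest was ANLN, with 1.11. Their summed FPKM was 2204 and 1680, a ratio of 0.762, where the sum over the replication genes had a ratio of 0.991.

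RNA of replication-dependent histones accumulates in S phase and mostly lacks a poly(A) tail. The list of them was drawn by older symbols alone, and whether each entry follows S phase was not tested. This list had a median log2 ratio of 0.47. Of its 85 entries, 58 were above 0 in both libraries. Among these 58, 23 (39.7%) stood at 1.5 or more, where 14.7% of all genes above 0 did. At 1/1.5 or less stood 10 (17.2%), where 17.3% did. Count intervals lay above 1 for 25 of the 58 and below for 4, where 23.4% and 23.1% of genes above 0 did. Of the 21 entries at 1 FPKM or more in both libraries, 19 had a ratio above 1 and 2 below. Of all 12638 genes at that level, 6764 and 5832 did. The 58 entries take in 4 pseudogenes and 2 genes without a match in the annotation, H2AC18 and H2AC19, with ratios of 4.53 and 1.44. The other 52 are annotated as protein coding, a selection made after seeing the data. Of these, 22 stood at 1.5 or more and 9 at 1/1.5 or less, with a median of 0.49. H2BC12 was at 69.6 FPKM in DMSO and 214 in FIN56, and H2AC8 at 0.8 and 5.77. The 58 entries hold low genes and 21 with shared reads. Histone levels in a library made from polyadenylated RNA may not follow those in the cells.

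**Figure D4:**
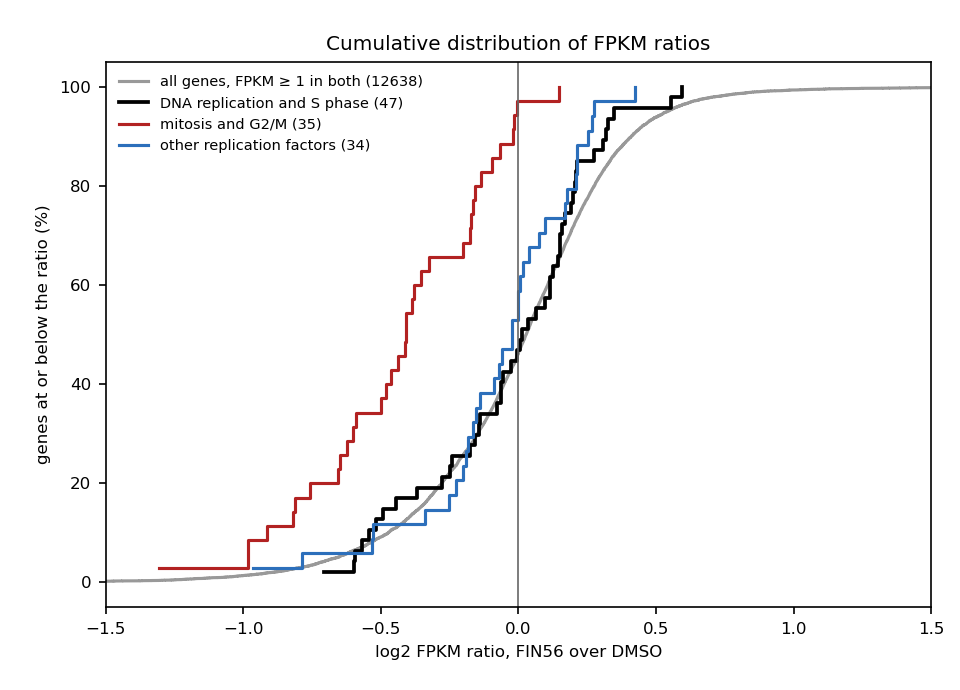
Share of genes (%) at or below each log2 FPKM ratio of FIN56 over DMSO, for the 47 DNA replication and S phase genes, 34 other replication factors, 35 mitosis and G2/M genes and the 12638 genes at 1 FPKM or more. The replication curve follows that of all genes, with medians of 0.013 and 0.028, and the mitosis curve lies to the left, with a median of -0.41.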

How the data were processed

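Processing described in the study's methods for tumor samples is taken to hold for the HSC-3 libraries, as the labels' processing notes name the same tools: STAR 2.6.1a, RSEM 1.3.1 and DESeq2 1.26.0 on GRCh38. Libraries were made with a stranded mRNA kit, which selects polyadenylated RNA. In the expected counts, deposited by the authors as RSEM gave them, a read is divided among the genes it fits. The deposited FPKM are relative to depth and effective length, with 2 decimals, and the deposited TPM have a fixed sum. The deposited rlog values, on a log2 scale, shrink low-count differences toward 0. The names of all 8 columns gave their library. FPKM ratios of genes above 0 in both libraries were compared with the thresholds in hundredths of FPKM. Clopper-Pearson intervals used expected counts rounded to whole numbers, which were called whole within 0.005, and without molecular identifiers the reads are not independent draws. With these totals the interval of POLD2 spans 0.561 to 0.597, that of CCNE1 0.688 to 1.23.

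The members and lists were chosen with earlier results of these data known. All members are named. Of each other list the names come from the 4 highest and 4 lowest ratios of FPKM, leaving out genes under 100 expected counts in all. The exceptions are H2AC19, named as a gene without a match in the annotation, and POLD4, named as a subunit of polymerase delta. Histone genes were found through older symbols in the RefSeq gene table, a match chosen after seeing the data, as was the median over protein-coding histone genes. Exons and transcripts came from GENCODE release 44, whose symbols and gene models may differ from the Ensembl release 94 the methods name. Alternatives were TPM, rlog, expected counts scaled by totals, edgeR TMM or DESeq2 size factors, minimum values, pseudocounts and a threshold of 2, and, chosen after seeing the data, centring in 10 bins of GC content and then 10 of length, fitted on genes with 50 or more expected counts in all. A marker gene was left out of the lists and is not reported here. Interval and threshold steps were tested on simulated data. A search of protein sequences for clamp-binding motifs was not run, as no protein sequences were used here. R 4.3.3 with edgeR 4.0.16 and DESeq2 1.42.0, and Python 3.11.15, pandas 2.3.3, scipy 1.17.1, numpy 2.4.6 and matplotlib 3.10.9 were used.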

Additional observations from a re-analysis of the deposited data

How the results depend on the processing

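No paired analysis was possible because there is just 1 library on either side, and no library could be left out. Of the 47 members, 22 had a ratio above 1 and 17 below 1 under every setting run that gave them a value, and 8 changed side, namely DTL, E2F1, MCM5, POLD3, POLE, PRIM2, RFC1 and RPA1. The median log2 ratio of the members ran from 0.0019 with edgeR TMM to 0.044 with TPM. Members at 1.5 or more numbered 1, and 2 with TPM, 0 with rlog values, 0 with a pseudocount of 1 FPKM, 0 after centring for GC content and length, and 0 at a threshold of 2. Members at 1/1.5 or less numbered 3, and 1 with TPM, 0 with rlog values, 7 with counts scaled by totals, 7 with edgeR TMM, 6 with DESeq2 size factors, 2 with a pseudocount of 1 FPKM, 2 after centring (POLA1 and RRM2), and 0 at a threshold of 2. Higher against lower members were thus 1 against 3 by FPKM, 2 against 1 by TPM and 1 against 7 by edgeR TMM. Of genes at 1 FPKM or more, 6.77% stood at 1/1.5 or less by FPKM, 6.06% by TPM and 0.12% with rlog values. Their share was 7.11% with counts scaled by totals, 7.15% with edgeR TMM and 6.27% with DESeq2 size factors. A pseudocount of 1 FPKM gave 4.52% and centring 6.10%. At 1.5 or more stood 4.63% by TPM, 0.05% with rlog values, 2.25% with that pseudocount and 4.14% after centring. With rlog values, which shrink differences, 1 member reached 1.2 and 1 reached 1/1.2. Interval counts of 20 and 16 became 22 and 15 with DESeq2 size factors. With rlog values the median log2 ratio was 0.094 for origin licensing, 0.0017 for polymerases, 0.096 for the clamp and loader, -0.25 for deoxynucleotide supply, -0.027 for the other nucleotide supply genes and -0.18 for mitosis. With DESeq2 size factors it was 0.090 for the MCM ring, 0.0036 for polymerases, which stood at -0.065 by FPKM, and 0.22 for the clamp and loader. Deoxynucleotide supply had -0.54 with TPM, -0.62 with counts scaled by totals and -0.63 with edgeR TMM. Other replication factors had -0.097 and -0.099, and mitosis had -0.46 and -0.46, with counts scaled by totals and by edgeR TMM. The cause of these shifts was not tested, apart from the fixed step between FPKM and TPM. Depth limits CCNE1 and E2F2, with 99 and 515 expected counts in DMSO.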
